A study of Homo sapiens with 6 samples.

Results

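The 48 genes described here encode the machinery of mitosis: the cyclins and kinases that start it, the spindle checkpoint, the chromosomal passenger complex, the centromere and kinetochore, mitotic kinesins, spindle assembly factors and the proteins of cytokinesis. They were taken by symbol from a written list, and all 48 were found among the 29436 symbols of the count table. The cells were hemogenic endothelium, the endothelium from which blood cells bud, made on AGM-S3 stroma from the human embryonic stem cell line H1, an established line, and sorted on day 8 as CD34+CD43-KDR+CD144+ cells. In the treated group the inducing medium held alpha lipoic acid (ALA), an antioxidant and enzyme cofactor, at 100 µg/ml, and the untreated group had none. Each group had 3 libraries of amplified polyA cDNA, each from 1000 cells, and all of them came from this 1 cell line. The question put by the submitters was how lipoic acid promotes the output of blood progenitors.

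Mitosis is driven by cyclin B bound to CDK1, and it ends when the anaphase-promoting complex, activated by CDC20, marks cyclin B and securin for destruction. Until every kinetochore is held by spindle microtubules, the spindle checkpoint proteins MAD2 and BUBR1 keep CDC20 in check. Most of these genes are transcribed in G2 and mitosis, from promoters bound by NF-Y and by the MuvB complex with B-MYB and FOXM1, and are silenced in resting cells by the related DREAM complex. Their summed level in a bulk sample is widely read as a measure of how many cells are dividing, but in such a sample fewer dividing cells and less RNA per dividing cell cannot be told apart.

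Library totals ran from 30041494 to 41351951 counts, and 4 libraries (untreated replicate 1 and the lipoic acid replicates) held even counts almost alone, at 99.13% to 99.34% of nonzero counts against 52.01% and 51.97% in untreated replicates 2 and 3. The sort gate was seen in the transcripts: CD34, KDR and CDH5 (CD144) were at 538 CPM (counts scaled to 1e+06 per library) or more in every library, and SPN (CD43) had no count. Of the 9 tested gate and hemogenic markers 3 rose (33.3%) and 5 fell (55.6%), against 24.2% and 23.3% of all tested genes. CD34 and CDH5 were 1.78-fold and 1.55-fold lower, KDR 1.17-fold higher and RUNX1, the factor that starts blood formation, 5.46-fold higher. The gate and hemogenic markers summed to 11374 to 11448 CPM untreated and 9843 to 10158 CPM with lipoic acid. For the mitotic genes untreated replicate 2 stood apart. It held the highest of the 3 untreated values for 39 of the 48 genes (81.2%), where it held the highest for 37.9% of all tested genes. Its median difference from untreated replicate 1 was 0.46 on the log2 scale over the mitotic genes and -0.01 over all tested genes. It was also the library with the fewest genes counted (14668, against 14901 to 15824 in the others), and its markers of mesenchyme and smooth muscle summed to 1965 CPM against 2593 and 2492 CPM in the other untreated libraries. Their part in the results was not tested, and the counts for the 48 genes, their roles and the related lists are given with and without this library.

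With all 6 libraries the summed level of the mitotic genes did not separate the groups. It was 912, 1203 and 982 CPM in untreated replicates 1 to 3 and 1056, 1148 and 1068 CPM in lipoic acid replicates 1 to 3. The lipoic acid values all lay inside the range of the untreated ones, but above both untreated values other than replicate 2. The means were 1033 ± 152 and 1090 ± 50.0 CPM (SD, n = 3 each). All 48 passed the filter on low counts. Of them 10 rose (20.8%) and 3 fell (6.25%) at an adjusted p under 0.05 in the edgeR quasi-likelihood test, where 24.2% of all 13780 tested genes rose and 23.3% fell. The share that rose was thus near the background and the share that fell was below it. The mitotic genes also varied more between replicates. Their median coefficient of variation (SD over mean) was 18.3% untreated and 9.49% with lipoic acid, against 10.7% and 7.53% over all tested genes. The part of this spread in the counts of calls was not tested. Every lipoic acid library lay above every untreated one for 11 genes (22.9%, background 30.4%) and below for 6 (12.5%, background 28.8%). The median log2 fold change was 0.03, beside -0.01 over all tested genes.

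**Figure D1:**
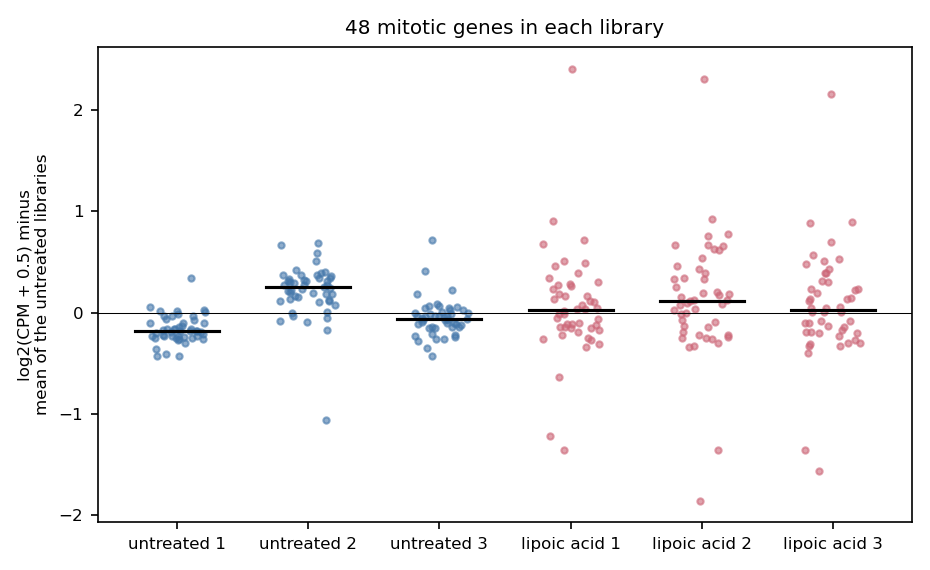
Each point is 1 of the 48 mitotic genes in 1 library, as log2(CPM + 0.5) minus the mean of that gene over the 3 untreated libraries (vertical axis), with a bar at the median. The median of untreated replicate 2 lies at 0.25 and that of untreated replicate 1 at -0.18, and the lipoic acid medians, 0.03 to 0.12, lie between them.

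The choice of untreated libraries moved these counts. Without untreated replicate 2, 15 genes rose (31.2%, background 25.1%) and 2 fell (4.17%, background 24.2%), with a median of 0.19. All 10 rises remained, and CCNB1, CCNB2, AURKB, TPX2 and NUSAP1 were added. Every lipoic acid library then lay above both remaining untreated ones for 22 genes (45.8%, background 34.2%) and below for 6 (12.5%, background 33.9%). In the 4 libraries of even counts, with untreated replicate 1 as the only control and assumed to vary like the others, 15 rose (31.2%, background 19.5%) and 2 fell (4.17%, background 17.8%). Without untreated replicate 1, 7 rose (14.6%, background 23.8%) and 5 fell (10.4%, background 20.8%). Without untreated replicate 3, 5 rose (10.4%, background 20.9%) and 2 fell (4.17%, background 19.3%). Leaving out lipoic acid replicate 1, 2 or 3 left 7, 5 or 3 rises (14.6%, 10.4% and 6.25%, backgrounds 19.6%, 20.2% and 18.9%) and 2, 3 or 2 falls (backgrounds 18.6%, 18.5% and 16.9%). In these 5 fits the share of rises was below the background, and without untreated replicate 2 it was above. With a fitted trend on GC content and transcript length taken out (the trend fit), 8 rose (background 23.7%) and 5 fell (background 24.6%), so that 61.5% of the calls were rises against 76.9%.

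**Figure D2:**
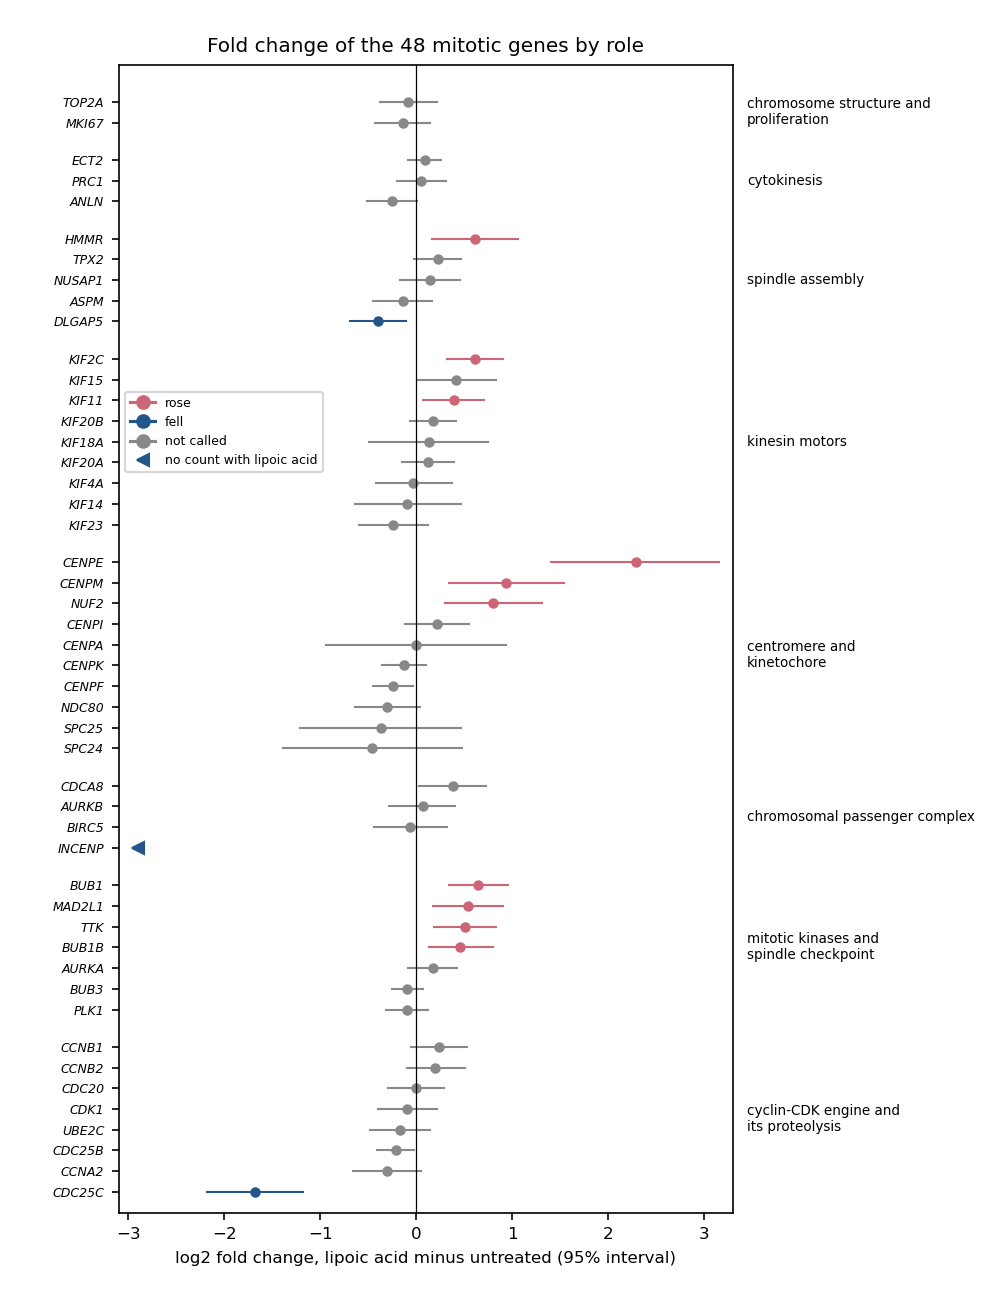
Fitted log2 fold change of each gene, lipoic acid minus untreated (horizontal axis), with its 95% interval, by role and coloured by call. INCENP, drawn as a triangle at the edge, had no count with lipoic acid, CENPE stands highest at 2.29, and most intervals cover 0.

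Promoters of these genes shared sequence features that were not used to choose them. RefSeq (GRCh38.p14) gave a promoter, 250 bases before to 50 after the annotated start, for 41 of the 48. The first listed promoter of each gene was used, and any other annotated starts of these genes were not searched. The cell cycle genes homology region (CHR), the site of MuvB and searched as TTTGAA or TTTAAA on both strands, occurred in 33 of 41 (80.5%), against 24.0% of all 35116 promoters of that length and 18.3% of those of tested genes. The CCAAT box, the site of NF-Y and searched as CCAAT on both strands, occurred in 31 of 41 (75.6%, against 34.6% of all and of those of tested genes), and 20 (48.8%, against 10.8% and 11.7%) held at least 2. An E2F core, searched as TTCCCGC or TTGGCGC on both strands, occurred in 9 (22.0%, against 9.2% of all and 13.0% of those of tested genes). TTTAAA reads the same on both strands and was counted once, and matches of different motifs may share bases. The 41 genes count once each, while the background shares count every listed promoter (15823 for tested genes), so a gene with several counts more than once there. A CHR match was found in 7 of 8 promoters of genes that rose, 2 of 3 of genes that fell and 24 of 30 of genes that were not called, so that it occurred in all 3 classes.

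Windows of 150 bases, from 130 before the start to 20 after it, are printed 5′ to 3′ for genes that rose (CENPE, BUB1, HMMR), fell (CDC25C, INCENP) or were not called (CCNB2, PLK1, MKI67), to show where the motifs lie in each class. Capitals mark CHR and CCAAT matches, the latter read as ATTGG on the other strand.
CENPE: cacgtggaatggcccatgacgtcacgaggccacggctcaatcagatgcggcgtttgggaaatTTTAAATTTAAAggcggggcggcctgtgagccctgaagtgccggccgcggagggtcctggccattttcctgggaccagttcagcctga
BUB1: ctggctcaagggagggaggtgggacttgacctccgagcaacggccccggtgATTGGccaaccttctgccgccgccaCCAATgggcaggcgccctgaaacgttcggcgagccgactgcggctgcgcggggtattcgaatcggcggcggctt
HMMR: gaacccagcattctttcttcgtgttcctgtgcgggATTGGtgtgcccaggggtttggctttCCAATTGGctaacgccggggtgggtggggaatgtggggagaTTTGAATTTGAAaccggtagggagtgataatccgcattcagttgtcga
CDC25C: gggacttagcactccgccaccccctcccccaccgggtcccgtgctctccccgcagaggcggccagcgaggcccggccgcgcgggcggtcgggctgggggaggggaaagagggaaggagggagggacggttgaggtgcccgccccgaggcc
INCENP: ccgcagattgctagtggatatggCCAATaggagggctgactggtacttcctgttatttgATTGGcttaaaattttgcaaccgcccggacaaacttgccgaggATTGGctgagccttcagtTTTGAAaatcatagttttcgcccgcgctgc
CCNB2: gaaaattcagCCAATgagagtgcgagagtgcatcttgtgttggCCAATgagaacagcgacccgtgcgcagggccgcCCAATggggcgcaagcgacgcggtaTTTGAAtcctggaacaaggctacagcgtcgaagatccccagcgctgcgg
PLK1: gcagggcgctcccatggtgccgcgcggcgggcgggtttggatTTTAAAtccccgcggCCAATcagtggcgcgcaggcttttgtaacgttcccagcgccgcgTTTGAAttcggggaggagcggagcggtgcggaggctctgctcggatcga
MKI67: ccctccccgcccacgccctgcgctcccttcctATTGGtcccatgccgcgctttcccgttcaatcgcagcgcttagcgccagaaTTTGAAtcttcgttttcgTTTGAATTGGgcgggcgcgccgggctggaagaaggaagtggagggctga
They lie on GRCh38.p14: CENPE at chr4:103198324-103198473 (- strand), BUB1 at chr2:110678044-110678193 (- strand), HMMR at chr5:163460502-163460651 (+ strand), CDC25C at chr5:138338336-138338485 (- strand), INCENP at chr11:62123881-62124030 (+ strand), CCNB2 at chr15:59105016-59105165 (+ strand), PLK1 at chr16:23678759-23678908 (+ strand) and MKI67 at chr10:128126404-128126553 (- strand). In these windows CCNB2 has 3 CCAAT boxes ahead of 1 CHR. INCENP, without a count under lipoic acid, has 3 CCAAT boxes and 1 CHR as well, and HMMR, which rose, has 3 CCAAT and 2 CHR matches, with a pair of the CCAAT matches sharing bases. PLK1 has 2 CHR matches and 1 CCAAT box, and MKI67 2 of each, with 1 base shared between a CHR and a CCAAT match. CENPE holds 2 CHR matches and BUB1 2 CCAAT boxes, each without a match of the other motif as searched. CHR letters other than TTTGAA and TTTAAA were not searched. The CDC25C window, at the first listed start, holds no match of either motif, and any other starts of this gene were not searched.

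**Figure D3:**
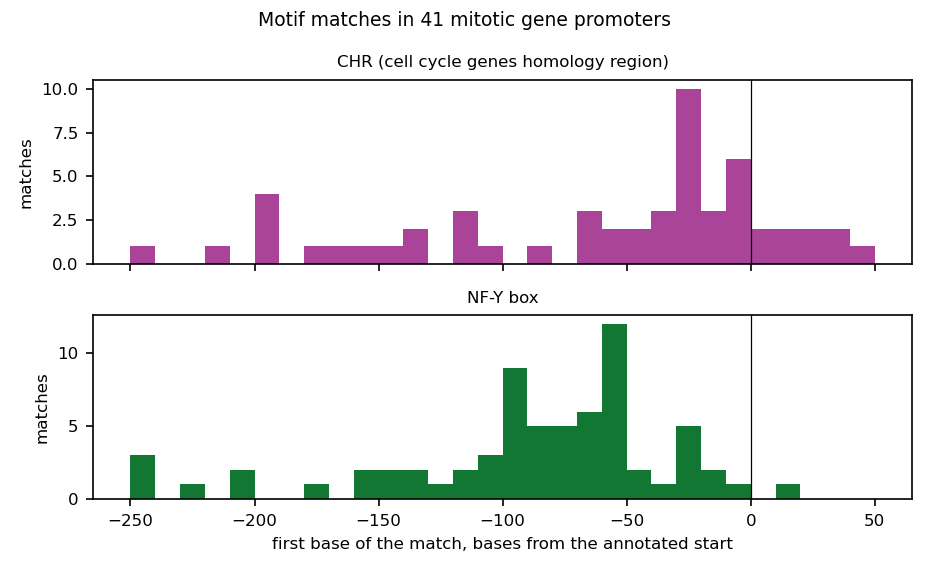
Number of motif matches in the 41 promoters (vertical axes) by distance of the first base from the annotated start (horizontal axis, bases), for the CHR above and the NF-Y box below. The 55 CHR matches have their median at -30 bases, against -129 over all promoters, and the 68 NF-Y matches at -77, against -96.

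Levels between genes were compared per kilobase of exonic length (CPM per kb). TPX2, a spindle assembly factor that activates Aurora A, stood first in both groups, at 19.7 ± 3.37 untreated and 23.0 ± 1.64 CPM per kb with lipoic acid (SD, n = 3 each). UBE2C, CCNB1, AURKA, CDC20 and CDK1 came next in untreated cells at 16.4, 13.9, 13.7, 12.9 and 12.2 CPM per kb. TPX2 and UBE2C lay further apart than the UBE2C SD of 2.94 and closer than the TPX2 SD of 3.37, and the other neighbours among these 6 lay closer than either SD. At the low end were KIF18A, CENPA, SPC24 and CENPE at 0.651, 0.613, 0.608 and 0.313 CPM per kb, and INCENP was last at 0.180. CENPE moved from rank 47 of 48 in untreated cells to rank 38 with lipoic acid, and CDC25C from rank 28 to rank 44.

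The counts by role that follow stand beside 24.2% rises and 23.3% falls over all tested genes. Without untreated replicate 2 these background shares were 25.1% and 24.2%. Of the 8 genes of the cyclin-CDK engine and its proteolysis 0 rose and 1 fell (12.5%), or 2 and 1 without untreated replicate 2. CDC25C (chromosome 5, 138285265 to 138338355, hg38), a phosphatase that removes the inhibitory phosphates from CDK1, was at 8.86, 10.4 and 8.15 CPM in untreated replicates 1 to 3 and at 3.64, 2.15 and 2.76 CPM in lipoic acid replicates 1 to 3. All 3 lipoic acid libraries thus lay below the untreated ones. The fall was 3.20-fold (log2 fold change -1.68 ± 0.23 SE, adjusted p = 0.000265), and it was called in all 21 alternatives. Among the 21, the same fit read at an adjusted p under 0.1 could not lose a call. FAM53C on the other strand overlaps 8.8% of the exonic length of CDC25C, and the strand setting of the counting is not given. Its relative CDC25B, which acts at the centrosome, was at 41.5 ± 3.49 and 35.8 ± 2.69 CPM without a call (adjusted p = 0.0689).

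CDK1 itself, the kinase that drives entry into mitosis, was at 39.1, 58.7 and 46.1 CPM untreated and 42.5, 51.5 and 41.5 CPM with lipoic acid, so the groups overlapped. Its log2 fold change was -0.09, with a 95% interval of -0.40 to 0.22. CCNB1, the main mitotic cyclin, was at 30.4, 43.7 and 32.8 CPM and at 39.4, 40.7 and 46.3 CPM (log2 fold change 0.24, adjusted p = 0.149). The overlap came from untreated replicate 2, and without that library CCNB1 was called higher (0.41, adjusted p = 0.00257), as was CCNB2 (0.40, adjusted p = 0.00301). CCNA2, cyclin A of S phase and G2, had a log2 fold change of -0.30 and was called lower only without untreated replicate 1 (-0.42, adjusted p = 0.0499). CDC20 and UBE2C, the activator and the ubiquitin-conjugating enzyme of the anaphase-promoting complex, differed by 0.00096 and -0.17 on the log2 scale, without a call.

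Of the 7 mitotic kinase and spindle checkpoint genes 4 rose (57.1%, background 24.2%) and 0 fell, the same counts as without untreated replicate 2. All 4 had every lipoic acid library above every untreated one. BUB1 (chromosome 2, 110637698 to 110678114), the kinase that recruits checkpoint proteins to kinetochores, was at 20.7, 31.0 and 24.0 CPM untreated and at 41.3, 42.5 and 35.0 CPM with lipoic acid. This 1.57-fold rise (log2 fold change 0.65 ± 0.14 SE, adjusted p = 0.00356) was called in all 21 alternatives. MAD2L1 (chromosome 4, 120055608 to 120067074), which encodes the CDC20 inhibitor MAD2, was at 19.3, 33.5 and 26.6 CPM and at 35.8, 41.4 and 38.5 CPM, a 1.46-fold rise (adjusted p = 0.0198). It was not called without untreated replicate 3 (adjusted p = 0.0544) or lipoic acid replicates 2 (0.0718) or 3 (0.0534).

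TTK (chromosome 6, 80003887 to 80042527), which encodes MPS1, the kinase at the head of the checkpoint, was at 11.4, 16.3 and 13.7 CPM untreated and at 17.5, 21.3 and 20.0 CPM with lipoic acid. The TTK rise was 1.42-fold (adjusted p = 0.0150), not called without lipoic acid replicates 2 (adjusted p = 0.0582) or 3 (0.0530). BUB1B (chromosome 15, 40161023 to 40221136), which encodes BUBR1 of the mitotic checkpoint complex, was at 9.72, 12.3 and 10.9 CPM and at 12.9, 17.5 and 14.9 CPM. Its groups came close, between 12.3 and 12.9 CPM, without overlap. The BUB1B rise was 1.38-fold (adjusted p = 0.0271), not called without untreated replicates 1 (adjusted p = 0.0755) or 3 (0.0679) or lipoic acid replicates 2 (0.102) or 3 (0.0693). A read-through gene shares 10.2% of its exonic length.

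The checkpoint partner BUB3 was not called. It was the most counted gene of the 48 at 101 ± 7.39 CPM untreated and 95.1 ± 4.13 CPM with lipoic acid (log2 fold change -0.09, 95% interval -0.25 to 0.07). PLK1, polo-like kinase of mitotic entry and the kinetochore, was at 24.5, 28.6 and 26.0 CPM and at 23.7, 27.0 and 23.3 CPM, with overlap (log2 fold change -0.10, interval -0.31 to 0.12). Genes on the other strand overlap 12.5% of its exonic length. AURKA, the Aurora kinase of the spindle poles, was at 40.0 ± 4.49 and 45.2 ± 6.47 CPM (adjusted p = 0.233). Whether the 4 checkpoint genes differ from these 3 in response was not tested.

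**Figure D4:**
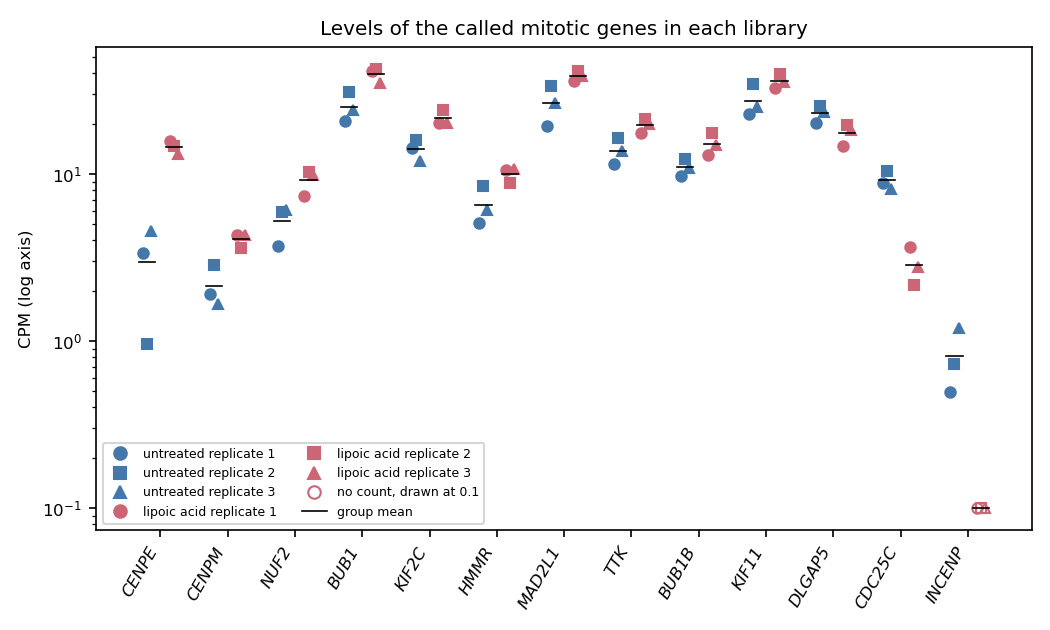
CPM (log axis) of the 13 called genes in each untreated (blue) and lipoic acid (red) library, ordered by fitted fold change, with the marker shape giving the replicate number and bars the group means. KIF11 is the only called gene whose groups overlap, and the open markers of INCENP stand for libraries without a count.

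In the chromosomal passenger complex, which corrects faulty kinetochore attachments, INCENP alone of 4 genes passed the test (1 rise and 1 fall without untreated replicate 2). Its fall made a share of 25.0%, beside a background of 23.3%. INCENP (chromosome 11, 62123973 to 62153163), the scaffold that binds and activates Aurora B, had 16, 22 and 36 counts (0.492, 0.732 and 1.20 CPM) in untreated replicates 1 to 3 and 0 in all lipoic acid libraries. A count of 0 over the 3 lipoic acid libraries allows up to 0.0530 CPM, taken as 3 counts with even counts halved. Against the untreated mean of 0.807 CPM, taken as exact, this makes INCENP at least 15.2-fold lower (adjusted p = 0.000988 in the edgeR test). INCENP was a scarce transcript in untreated cells too, and it passed the filter on low counts only through the untreated libraries. Its call, and so its place among the falls, partly rests on that filter. The 15.2-fold limit covers counting error in the lipoic acid libraries only, and not the spread of the untreated values. AURKB, the kinase of the complex, was at 17.7, 26.2 and 16.9 CPM and at 21.5, 21.6 and 20.5 CPM, inside the untreated range (adjusted p = 0.753), and was called higher only without untreated replicate 2 (log2 fold change 0.29, adjusted p = 0.0226). BIRC5, which encodes survivin, was at 19.2 ± 5.35 and 18.4 ± 1.37 CPM. CDCA8, which encodes borealin, lay higher in every lipoic acid library, at 8.19 ± 0.805 against 6.31 ± 0.0773 CPM, without a call (adjusted p = 0.0730).

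Of 10 centromere and kinetochore genes 3 rose and 0 fell, the same counts as without untreated replicate 2, and the rest did not pass. CENPE (chromosome 4, 103105806 to 103198409), a kinesin that carries chromosomes to the spindle equator, was at 3.38, 0.964 and 4.52 CPM untreated and at 15.7, 14.6 and 13.1 CPM with lipoic acid. The lipoic acid libraries stood far above the untreated ones, and untreated replicate 2, highest for most of the 48 genes, was here the lowest. The rise was 4.88-fold (log2 fold change 2.29 ± 0.39 SE, adjusted p = 0.00111), and from 1.87 to 2.73 on the log2 scale when any 1 library was left out. CENPE ranked 495th from the top of 13780 fitted fold changes, and it was called in all 21 alternatives.

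CENPM (chromosome 22, 41938721 to 41947164), of the inner kinetochore, was at 1.91, 2.83 and 1.66 CPM untreated and at 4.33, 3.61 and 4.30 CPM with lipoic acid, without overlap. The CENPM rise was 1.92-fold (adjusted p = 0.0160), not called without untreated replicate 3 (adjusted p = 0.0590) or lipoic acid replicates 1 (0.0561) or 3 (0.0592). NUF2 (chromosome 1, 163266576 to 163355764) was at 3.69, 5.95 and 6.08 CPM and at 7.42, 10.2 and 9.86 CPM. The NUF2 rise was 1.75-fold (adjusted p = 0.0142), not called without lipoic acid replicates 2 (adjusted p = 0.0520) or 3 (0.0551).

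NUF2 protein works in a complex of 4 with NDC80, SPC24 and SPC25 that grips the microtubule, and its 3 partners were not called. NDC80 was at 16.2, 23.2 and 16.6 CPM untreated and at 14.8, 16.8 and 13.9 CPM with lipoic acid (log2 fold change -0.30, 95% interval -0.64 to 0.04), and was called lower in 1 alternative, the trend fit with the replicate block (-0.32, adjusted p = 0.0355). SPC24 and SPC25 were scarce, at 1.73 ± 0.959 and 2.51 ± 1.35 CPM untreated and 1.26 ± 0.0440 and 1.93 ± 0.185 CPM with lipoic acid. Their log2 fold changes, -0.46 and -0.37, turned to 0.09 and 0.16 without untreated replicate 2, neither called, while NUF2 was then at 0.91 and NDC80 at -0.11. The difference between subunits was not tested. CENPA, the histone H3 variant that marks the centromere, was at 0.923, 1.86 and 0.864 CPM and at 1.25, 1.39 and 1.02 CPM, with a 95% interval of -0.94 to 0.94 on the log2 scale. Untreated replicate 2 was the highest of the 6, and without it the log2 fold change was 0.44, not called. CENPF lay lower in every lipoic acid library without a call (23.2 ± 1.01 and 19.6 ± 1.13 CPM, adjusted p = 0.0542), and was called lower in the trend fit (adjusted p = 0.0150). CENPI and CENPK, both of the inner kinetochore, differed by 0.22 and -0.13 on the log2 scale without a call.

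Of 9 kinesin motors 2 rose (22.2%, near the background of 24.2%) and 0 fell, with the same counts without untreated replicate 2. KIF2C (chromosome 1, 44739818 to 44767767), the microtubule depolymerase MCAK that releases wrong attachments, was at 14.2, 15.9 and 12.0 CPM untreated and at 20.1, 24.2 and 20.1 CPM with lipoic acid. The groups did not overlap, and the 1.53-fold rise (log2 fold change 0.61 ± 0.13 SE, adjusted p = 0.00359) was called in all 21 alternatives. KIF11 (chromosome 10, 92593286 to 92655395), the motor Eg5 that pushes spindle poles apart, was at 22.7, 34.4 and 25.3 CPM and at 32.6, 39.5 and 35.7 CPM. Its groups overlapped through untreated replicate 2, and the 1.31-fold rise was close to the threshold (adjusted p = 0.0457). It was not called without untreated replicates 1 (adjusted p = 0.126) or 3 (0.137) or any lipoic acid replicate (0.0532, 0.147 and 0.0964), nor with even counts halved (0.0510) or in the trend fit (0.131).

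The other 7 kinesins had log2 fold changes from -0.24 (KIF23, of the central spindle) to 0.42 (KIF15, a spindle motor that overlaps in work with KIF11). KIF15 lay higher in every lipoic acid library, at 6.84 ± 1.15 against 5.12 ± 0.231 CPM, without a call (adjusted p = 0.0878). KIF4A, a chromosome-bound motor, was at 5.99 ± 0.817 and 5.89 ± 0.219 CPM. It has a near-identical retrocopy, KIF4B, and whether reads were shared between them was not tested. KIF14, KIF18A, KIF20A and KIF20B differed by -0.09, 0.13, 0.12 and 0.18 on the log2 scale, none of them called.

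Among 5 spindle assembly genes 1 rose and 1 fell (3 and 0 without untreated replicate 2). Each share was 20.0%, near the backgrounds of 24.2% and 23.3%. HMMR (chromosome 5, 163460203 to 163491945), which encodes a spindle pole protein also known as RHAMM, was at 5.11, 8.41 and 6.08 CPM untreated and at 10.5, 8.80 and 10.7 CPM with lipoic acid. The HMMR rise was 1.53-fold (adjusted p = 0.0287), and was not called without untreated replicates 1 (adjusted p = 0.0789) or 3 (0.0854) or lipoic acid replicates 1 (0.0859) or 3 (0.0943), or in the trend fit (0.0617). DLGAP5 (chromosome 14, 55148112 to 55191678), whose protein HURP stabilises microtubules near chromosomes, was at 20.2, 25.5 and 23.4 CPM and at 14.6, 19.6 and 18.2 CPM. These groups did not overlap either, with the nearest libraries at 20.2 and 19.6 CPM. The DLGAP5 fall was 1.32-fold (adjusted p = 0.0301), not called without untreated replicates 2 (adjusted p = 0.0579) or 3 (0.0829), without lipoic acid replicates 1 (0.124) or 3 (0.0723), or in the 4 libraries of even counts (0.323).

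TPX2 was at 62.7, 84.9 and 65.2 CPM untreated and at 77.3, 89.1 and 82.6 CPM with lipoic acid. Untreated replicate 2 again fell among the lipoic acid values, and TPX2 was not called with it (log2 fold change 0.23, adjusted p = 0.117) but was without it (0.38, adjusted p = 0.00149). The replicate block also called TPX2 higher (0.24, adjusted p = 0.0279). NUSAP1, a microtubule bundling protein, was at 25.4 ± 5.42 and 28.1 ± 2.97 CPM, with a read-through gene covering 62.2% of its exons, and ASPM, of the spindle poles, at 11.0 ± 0.901 and 9.96 ± 0.904 CPM. NUSAP1 was called higher without untreated replicate 2 (log2 fold change 0.33, adjusted p = 0.0197).

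None of the 3 cytokinesis genes was called, with or without untreated replicate 2. ECT2, the exchange factor that switches on RhoA at the division plane, was at 32.7 ± 1.80 and 34.7 ± 1.33 CPM. PRC1, which bundles the central spindle, was at 23.7 ± 3.19 and 24.5 ± 2.08 CPM, with 57.6% of its exonic length shared with a read-through gene. ANLN, which encodes the contractile ring protein anillin, had a log2 fold change of -0.25 (adjusted p = 0.0991) and was called lower without untreated replicate 1 (-0.35, adjusted p = 0.0223) and in the trend fit (-0.36, adjusted p = 0.0228).

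The common markers of dividing cells were not called, with or without untreated replicate 2. MKI67, which encodes the proliferation antigen Ki-67, was at 20.2, 27.3 and 20.9 CPM untreated and at 19.7, 23.0 and 19.6 CPM with lipoic acid (log2 fold change -0.14, 95% interval -0.43 to 0.15). TOP2A, topoisomerase II alpha of mitotic chromosomes, was at 46.1, 66.4 and 51.4 CPM and at 45.4, 59.1 and 50.9 CPM (-0.08, interval -0.38 to 0.22). In both genes the lipoic acid libraries overlapped the untreated ones, and the library numbered 2 was the highest of its group. These intervals do not cover a 1.5-fold change in either direction.

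Other genes of cell division were mixed in the same libraries, and their counts without untreated replicate 2 are given in brackets as rises and falls. The background shares were 24.2% rises and 23.3% falls, or 25.1% and 24.2% without that library. Of 29 tested further centromere and kinetochore genes 3 rose and 8 fell (5 and 6), at 10.3% and 27.6%. ZWINT, of the outer kinetochore, was 1.91-fold higher (14.5 ± 0.468 to 27.8 ± 3.66 CPM) and CENPC, which links centromere and kinetochore, 1.39-fold lower. Cohesin, condensin and separase genes had 8 rises and 1 fall among 21 (9 and 0), at 38.1% and 4.76%. The cohesin ring genes SMC3 and RAD21 were 1.56-fold and 1.39-fold higher, and securin (PTTG1) was 1.37-fold lower though its groups overlapped. For the anaphase-promoting complex 0 of 16 rose and 4 fell (1 and 3), the falls at 25.0%, with UBE2S 1.79-fold lower. Centrosome genes had 6 rises and 3 falls among 20 (7 and 4), and other spindle and cytokinesis genes 8 and 6 among 32 (9 and 4). The 20 regulators of mitotic entry held 4 rises and 6 falls (6 and 6), among them BORA, the activator of AURKA, 4.22-fold higher (1.99 ± 0.754 to 8.42 ± 0.690 CPM), and the cyclin gene CCNA1 3.86-fold lower (20.2 ± 4.73 to 5.25 ± 0.664 CPM).

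**Figure D5:**
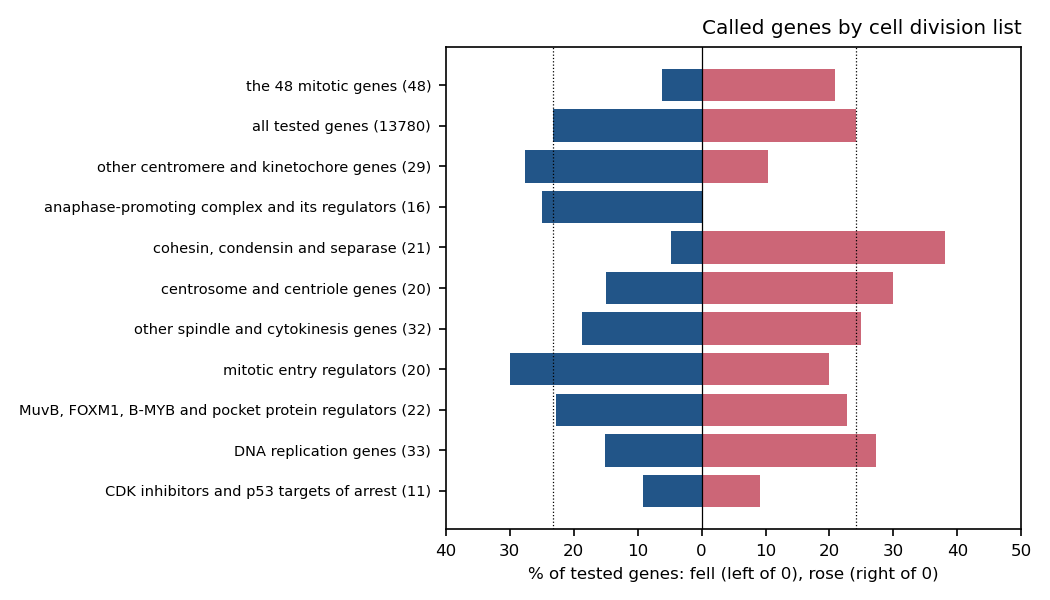
Share of tested genes that rose (right of 0) or fell (left of 0) in each cell division list, in percent, with the number tested in brackets and dotted lines at the shares of all tested genes (24.2% and 23.3%). The 48 mitotic genes have 20.8% rises and 6.25% falls.

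The transcription factors that govern mitotic genes were measured too. Of 22 MuvB, FOXM1, B-MYB and pocket protein genes 5 rose and 5 fell (6 and 5 without untreated replicate 2). Each share was 22.7%, near the backgrounds of 24.2% and 23.3%. MYBL2, which encodes B-MYB, rose 1.24-fold (20.2 ± 1.77 to 25.0 ± 2.12 CPM, adjusted p = 0.0344), and FOXM1 was at 8.12, 13.3 and 8.58 CPM untreated and 11.4, 15.8 and 12.5 CPM with lipoic acid, with overlap and without a call (adjusted p = 0.138). E2F8, a repressor of the E2F family, was at 1.44 ± 0.357 CPM untreated and had no count with lipoic acid. With the untreated mean taken as exact, it was at least 27.1-fold lower. E2F8 passed the filter on low counts only through the untreated libraries, so its call among the falls partly rests on that filter. DNA replication genes had 9 rises and 5 falls among 33 (12 and 4 without untreated replicate 2), at 27.3% and 15.2%. The licensing gene CDC6 was 3.66-fold higher and CCNE1 (cyclin E1) 2.02-fold lower. Of 11 CDK inhibitors and p53 targets 1 rose (CCNG1, 1.51-fold) and 1 fell (CDKN2D, 1.93-fold), each a share of 9.09%. Without untreated replicate 2 the counts were 2 and 2 of 12 tested. CDKN1A, which encodes p21, was not called (661 ± 52.5 and 739 ± 20.7 CPM, adjusted p = 0.0552). Untreated replicate 2 was the highest untreated library for 37.9% of all tested genes. In the related lists this share ran from 45.0% (centrosome genes) to 85.0% (mitotic entry genes). It was 69.7% for the replication genes and 63.6% for the CDK inhibitors and p53 targets, and 81.2% for the 48.

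Markers of other cell types also differed between the groups. Their counts of calls stand beside 24.2% rises and 23.3% falls over all tested genes. Endoderm and hepatic markers summed to 26.0 to 37.7 CPM untreated and 142 to 213 CPM with lipoic acid (7 of 8 tested rose), and epithelial markers to 226 to 249 and 409 to 474 CPM (5 of 6 rose). Mesenchymal and smooth muscle markers ran from 1965 to 2593 and from 1496 to 2045 CPM (1 of 11 rose, 6 fell), and in each group the library numbered 2, highest in mitotic genes, was the lowest in these. The 10 blood and myeloid markers summed to 301 to 321 and 245 to 272 CPM (0 of 3 tested rose, 2 fell), most of it LAPTM5 at 290 ± 7.31 and 244 ± 14.7 CPM, and PTPRC, SPI1, MPO and CD52 were at 0 in every library. Megakaryocytic markers were scarce, at 0.964 to 2.15 and 6.63 to 8.04 CPM (3 of 4 rose), with PPBP and GP1BB at 0. Erythroid ones summed to 0.123 to 0.665 and 0.919 to 1.46 CPM (1 of 1 rose), with HBE1, HBG1, HBA1 and HBA2 at 0. Pluripotency markers ran from 80.0 to 83.9 and from 93.1 to 95.6 CPM, with POU5F1 and SOX2 at 0. Of 4 tested, 3 rose (LIN28A 1.68-fold, ZFP42 1.91-fold and USP44 15.8-fold). The other was not called (log2 fold change -0.07), though every lipoic acid library lay below every untreated one. Whether cells of these types were present, and their part in the mitotic gene values, was not tested.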

How the data were processed

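Counts per gene symbol were used as deposited. The submitters' processing notes name HISAT2, featureCounts, DESeq2 and hg38 without their roles, and the deposited values are whole-number raw counts. Versions, annotation, strand setting and the treatment of reads with several alignments are not given in the sources used here. The members, roles, lists and naming rule were chosen with earlier results of these data known. Named in full were 10 set genes and up to 4 called genes of each role with the lowest p.

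In R 4.3.3, genes were kept by filterByExpr (13780 tested), scaled by TMM and tested with the edgeR 4.0.16 quasi-likelihood F test, group as the only term, with Benjamini-Hochberg adjustment over all tested genes. Genes with an adjusted p under 0.05 rose or fell. CPM used TMM-scaled totals, and standard errors came from the F statistic. The procedure was tested on simulated data that gave every gene the common dispersion of these libraries. It recovered 49 of 100 genes changed 1.5-fold and 91 of 100 changed 2.0-fold, with 7 false calls. Changes of 1.5-fold or less could thus be missed. Limma 3.58.1 and DESeq2 1.42.0 served as alternatives.

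Nothing in the labels says that replicates were separate cultures, so p-values measure spread among these libraries alone, and that spread may be technical. The cDNA was amplified and no molecular barcodes are mentioned, so limits on zero counts cover counting error only, and only in the group without counts. Positions, lengths and overlaps came from GENCODE v29 (99.36% of symbols found), promoters from RefSeq. Pseudogenes are named after 9 members, CCNB2, CDC20, UBE2C, AURKA, BUB1, BUB3, CENPI, DLGAP5 and MKI67, and could share their reads. Of the listed genes CENPX, CENPS, KNL1, SGO1, SGO2 and PIMREG were not analysed here.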

Additional observations from a re-analysis of the deposited data

How the results depend on the processing

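Of the 13 calls, BUB1, CENPE, KIF2C and CDC25C held in all 21 alternatives. INCENP held in the 19 that gave it a value. It was not tested under a stricter filter on low counts, or when the counts of every library were halved. In each of these fits 47 of the 48 genes were tested and 2 fell. The other 8 calls were lost in at least 1 alternative, while 22 of the 48 genes were called in none. When 1 library was left out, the rises ran from 3 to 15 and the falls from 2 to 5. Falls numbered 6 at an adjusted p under 0.1, 5 with the trend on GC content and length taken out, and 6 with that trend out and the replicate block in, and the cause was not tested. The replicate block gave 11 rises and 3 falls. Same-numbered libraries had deviations correlated at 0.10, 0.09 and 0.10 over 13780 genes, each highest with its own number, which is a hint from the data and not from the design.

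Some genes without a call changed sign. With 1 library left out, log2 fold changes ran from -0.20 to 0.08 for CDK1, -0.08 to 0.17 for CDC20, -0.05 to 0.29 for AURKB, -0.17 to 0.20 for BIRC5, -0.19 to 0.44 for CENPA, -0.70 to 0.09 for SPC24, -0.60 to 0.16 for SPC25, -0.11 to 0.09 for KIF4A, -0.26 to 0.28 for KIF14, -0.02 to 0.16 for PRC1, -0.18 to 0.09 for TOP2A and -0.21 to 0.01 for MKI67. In the 4 libraries of even counts they were 0.21 for CDK1, 0.08 for UBE2C, 0.01 for PLK1, 0.17 for BIRC5, 0.27 for SPC25, 0.23 for KIF14, 0.17 for TOP2A and 0.04 for MKI67. Voom gave 0.10 for BIRC5, 0.0032 for SPC24 and 0.17 for KIF14, and halved even counts -0.01 for CDC20 and -0.03 for CENPA. With the trend on GC content and length out, PRC1 was at -0.01 and ECT2 at -0.03, and with the block added PRC1 was at -0.01, ECT2 at -0.02 and KIF18A at -0.0016.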
